A study of Mus musculus with 24 samples.

Results

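The genes described here are 10 genes of the mitochondrial pathway of apoptosis, chosen by name, with earlier results of these data known: the effectors Bax and Bak1, the survival genes Bcl2, Bcl2l1 and Mcl1, the BH3-only genes Bcl2l11, Bbc3, Pmaip1 and Bid, and Apaf1. They are 10 of the 54242 genes in the deposited table, and all 10 were among the 16447 genes tested. In this pathway, BH3-only proteins sense damage or stress and either neutralise the survival proteins or activate the effectors, which open pores in the outer mitochondrial membrane. Cytochrome c that leaves through these pores binds APAF1, which assembles into the apoptosome and activates caspase-9. Bbc3 (PUMA), Pmaip1 (NOXA), Bax and Apaf1 are textbook target genes of the transcription factor p53, and mouse embryonic stem cells (ESCs) are known to enter apoptosis readily after damage.

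The data are 24 RNA-seq libraries of CGR8, an established mouse ESC line, in 8 groups of 3. Cells were transfected with a pool of non-targeting siRNAs (si-CTL) or of siRNAs against Rsl24d1 (si-Rsl24d1), which codes for a factor in the maturation of the large ribosomal subunit. Each was done without or with rescue, in which doxycycline induces an ectopic Rsl24d1 open reading frame carried by the CGR8-RESCUE line, a puromycin-selected line with a piggyBac transgene. Cells were collected 72 h after transfection in medium with serum and LIF (day 0) or after 4 days of 10 nM retinoic acid (RA; day 4). The 4 groups of each day are therefore si-CTL without rescue, si-Rsl24d1 without rescue, si-CTL with rescue and si-Rsl24d1 with rescue, and all 8 groups were transfected. The sources differ on some points: the labels give cells without rescue an empty vector where the methods describe the same line without doxycycline, and the design text keeps LIF with RA where the methods remove it. Triplicates are called independent, but nothing says more about how the cultures were separated, so p-values measure the spread between these samples.

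Values are TPM, the share of a gene's transcripts per length scaled to a common sum, so levels can be compared between genes. Differences are given on the deposited log2(TPM + 1) scale with their standard error (SE), and a gene "passed" at a Benjamini-Hochberg adjusted p below 0.01 in limma over all tested genes. The number of reads behind the values is unknown. The targeted gene follows its labels at day 0. Rsl24d1 was at 148, 139.7 and 136 TPM in si-CTL without rescue and at 36.6, 37.9 and 32.7 TPM in si-Rsl24d1, which is 25.3% of the si-CTL mean. With rescue it was at 103, 96.1 and 121 TPM in si-Rsl24d1 against 147 to 158 TPM in si-CTL. At day 4 it did not follow them: without rescue, si-CTL had 95.9 to 101 TPM and the libraries labelled si-Rsl24d1 had 89.3 to 99.8 TPM, a log2 difference of -0.04 ± 0.07 (SE, adjusted p = 0.66, limma). With the rescaling described next this difference was -0.20 and passed. The pluripotency markers summed to 3957 to 5447 TPM over the libraries at day 0 and to 5959 to 7021 TPM at day 4. In si-CTL cells without rescue 6 of 8 fell from day 0 to day 4, among them Pou5f1 (log2 difference -1.10) and Sox2 (-0.72), while Dppa5a (1.03) and Nanog (0.79) rose. The 3 blood markers were below 1 TPM in every library.

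Because log2 differences depend on the common sum, TPM were also rescaled by median of ratios size factors. This moved the median log2 difference of all genes by 0.13 in si-Rsl24d1 against si-CTL at day 4 without rescue and in the test of the siRNA effect between days. In 5 other comparisons it moved by 0.10 to 0.12 in size, and by 0.02 or less in si-Rsl24d1 against si-CTL at day 0 with and without rescue. Where the rescaling ends a call or turns a direction, its value is given beside the result.

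In gencode vM21 (GRCm38), Apaf1 spans chr10:90989311-91082770 on the minus strand. Bbc3 spans chr7:16308393-16318205 on the plus strand and Bax chr7:45461697-45466898 on the minus strand, where it overlaps the annotated gene Gm45808 on the same strand. Bcl2l1 spans chr2:152780668-152831728 (minus), Bcl2l11 chr2:128126038-128162547 (plus), Mcl1 chr3:95658788-95663176 (plus), Bcl2 chr1:106538178-106714274 (minus), Bak1 chr17:27019810-27029009 (minus) and Bid chr6:120891930-120916853 (minus). Bak1, Bid and Apaf1 overlap Ggnbp1, Bcl2l13 and Gm25390 on the opposite strand. On the same strand, Bcl2 overlaps Mir3473f and Gm37053, and Bid overlaps Gm44260. Rsl24d1, read as the check of the labels, overlaps the annotated gene Gm20509 on the same strand. Reads of overlapping genes may be divided between them by the quantification.

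RefSeq promoter windows (GRCm38.p6, 250 bases before to 50 after a start site) were found for 9 of the 10 genes, with 14 windows in all. The windows were searched on both strands for a p53 half-site, for its core letters CATG, for the forkhead letters GTAAACA, for the GC box GGGCGG and for the letters TGATGNAA bound by ATF4 and CHOP dimers. CATG can lie inside a p53 half-site, so these can overlap. The 250 bases before the start site are shown for 3 genes that rose together at day 0 and hold a match, with the match in capitals: CATG in Apaf1 (chr10:91082744-91082993), the p53 half-site in Bax (chr7:45466899-45467148) and the reverse complement of GTAAACA in Bbc3 (chr7:16310011-16310260). Each is written 5′ to 3′ on the strand of its gene.
Apaf1: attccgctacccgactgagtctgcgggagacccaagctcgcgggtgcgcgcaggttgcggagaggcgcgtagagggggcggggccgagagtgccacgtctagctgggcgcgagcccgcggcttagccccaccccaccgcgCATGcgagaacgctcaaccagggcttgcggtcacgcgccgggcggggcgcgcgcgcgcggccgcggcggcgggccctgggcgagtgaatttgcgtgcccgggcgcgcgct
Bax: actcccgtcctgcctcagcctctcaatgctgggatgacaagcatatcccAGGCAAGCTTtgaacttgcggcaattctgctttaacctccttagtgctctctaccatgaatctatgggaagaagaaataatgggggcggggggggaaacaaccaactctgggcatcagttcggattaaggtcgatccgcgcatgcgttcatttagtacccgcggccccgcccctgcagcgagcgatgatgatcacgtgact
Bbc3: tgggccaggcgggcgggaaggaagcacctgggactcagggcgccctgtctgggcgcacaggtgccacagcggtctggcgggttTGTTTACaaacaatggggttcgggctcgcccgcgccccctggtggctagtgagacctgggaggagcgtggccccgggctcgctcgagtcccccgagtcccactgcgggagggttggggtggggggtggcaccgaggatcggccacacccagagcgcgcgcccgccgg

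The Bax match begins 201 bases, the Apaf1 match 110 bases and the Bbc3 match 167 bases before the start site. Bax was the 1 gene of the 9 with a p53 half-site in a window, a motif that 8.36% of the 32851 RefSeq promoters hold. This share and those that follow count single windows, while the 9 genes have 14 windows in all. CATG stood in the windows of Apaf1, of Bax (3 matches) and in 2 of the 3 Bcl2l1 windows, against 61.1% of all promoters. GTAAACA stood in 1 window each of Bbc3 and Bcl2l11 (3.65% of all promoters), GGGCGG in windows of Bcl2, Bcl2l11, Mcl1, Bid, Bbc3, Bax and Apaf1 (35.7%), and TGATGNAA in none (3.97%). These are matches of letters in short windows and not binding sites.

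Over the 24 libraries the 10 genes spanned a wide range of levels. Bax was the highest, at 256 to 429 TPM with a median of 324, followed by Mcl1 at 117 to 281 TPM. Bbc3 (25.5 to 59.0 TPM), Bak1 (22.7 to 41.1 TPM), Bcl2l1 (26.8 to 46.7 TPM), Bid (22.1 to 35.1 TPM) and Bcl2l11 (16.4 to 30.7 TPM) lay in a middle range. Apaf1 (10.6 to 43.3 TPM) and Pmaip1 (7.69 to 30.4 TPM) were the most variable, with SDs of 0.57 and 0.51 on the log2(TPM + 1) scale over the libraries. Bcl2, the founding member of the family, was between 0.262 and 0.717 TPM, so that Mcl1 supplied 88.4% of the summed TPM of the 3 survival genes in si-CTL cells at day 0.

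**Figure D1:**
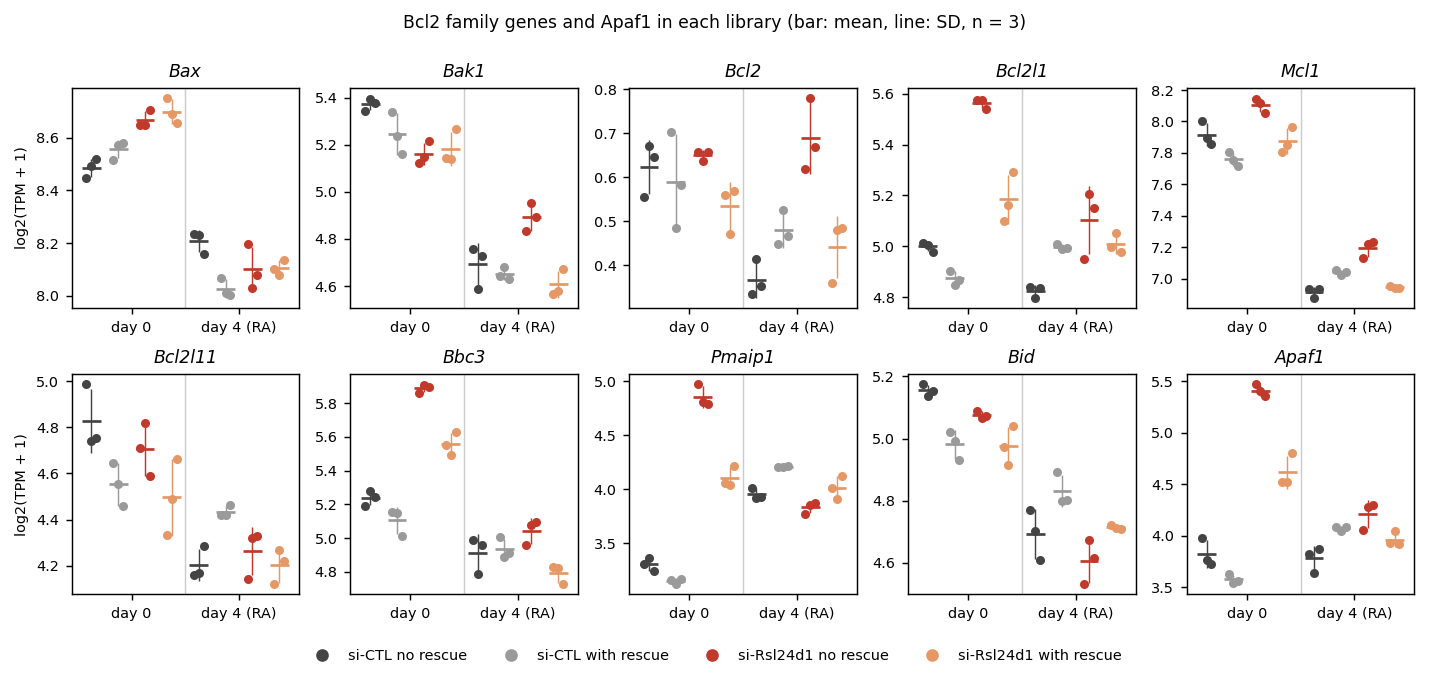
Level of each gene in log2(TPM + 1) on the vertical axis in each of the 24 libraries (points), grouped by day, siRNA and rescue, with the group mean (bar) and SD (line), n = 3. Apaf1, Pmaip1, Bbc3 and Bcl2l1 are highest in si-Rsl24d1 cells at day 0 without rescue, and Mcl1, Bak1 and Bax are lower in every group at day 4 than in every group at day 0.

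The first comparison asks how the apoptosis genes responded to the loss of Rsl24d1 in self-renewing cells. At day 0 without rescue, 6 of the 10 genes rose in si-Rsl24d1 cells and 1 fell. Over all tested genes, 14.3% rose and 16.1% fell. The largest changes were those of Apaf1 and Pmaip1, both about 3-fold, followed by Bbc3 and Bcl2l1. Apaf1 and Pmaip1 were also more than 1.8-fold higher on the log2(TPM + 1) scale, as were 3.4% of all tested genes. For 8 of the 10 genes no si-Rsl24d1 library fell inside the range of si-CTL, and the same held for 51.1% of all tested genes. The median log2 difference was 0.18 for the 10 genes and -0.01 for all tested genes.

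Among the BH3-only genes, Pmaip1, whose product NOXA binds mainly MCL1, stood at 8.88, 9.29 and 8.48 TPM in si-CTL and at 30.4, 27.0 and 26.7 TPM in si-Rsl24d1. The 2 groups were far apart, with a log2 difference of 1.55 ± 0.06 (SE, adjusted p = 1.3e-13, limma) and 3.16-fold in mean TPM. Bbc3, whose product PUMA binds all the survival proteins, stood at 35.5, 37.8 and 36.9 TPM in si-CTL and at 57.2, 59.0 and 58.6 TPM in si-Rsl24d1. It was 1.58-fold higher, with a log2 difference of 0.65 ± 0.06 (SE, adjusted p = 1.5e-08, limma). The other 2 BH3-only genes did not pass. Bid, which links death receptors to mitochondria once its product is cleaved, was at 34.2 to 35.1 TPM in si-CTL and at 32.5 to 33.1 TPM in si-Rsl24d1, a log2 difference of -0.08 ± 0.04 (SE, adjusted p = 0.18, limma) although the libraries did not overlap. Bcl2l11 (BIM) overlapped between the groups, at 25.7 to 30.7 TPM and 23.0 to 27.2 TPM.

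Apaf1, the scaffold of the apoptosome, was at 14.7, 12.6 and 12.2 TPM in si-CTL and at 43.3, 41.3 and 39.9 TPM in si-Rsl24d1. The log2 difference was 1.59 ± 0.08 (SE, adjusted p = 1.0e-11, limma), 3.15-fold in mean TPM. Among the 8 groups, si-Rsl24d1 at day 0 without rescue held the highest Apaf1 level, and its libraries did not overlap with the next group.

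The survival genes responded unequally. Bcl2l1 (BCL-XL) stood at 31.3, 31.1 and 30.5 TPM in si-CTL and at 46.7, 46.6 and 45.5 TPM in si-Rsl24d1, a log2 difference of 0.56 ± 0.05 (SE, adjusted p = 3.8e-08, limma). Mcl1 stood at 255, 237 and 231 TPM and at 281, 276 and 264 TPM. Its log2 difference of 0.19 ± 0.04 (SE, adjusted p = 0.0015, limma) passed, but not without si-CTL replicate 3 (0.16) or si-Rsl24d1 replicate 1 (0.17), nor in a fit of only these 6 libraries. Bcl2 was at 0.468 to 0.591 TPM and 0.555 to 0.578 TPM, with a log2 difference of 0.03 (adjusted p = 0.78, limma).

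The effectors moved little and in opposite directions. Bax rose from 348, 359 and 365 TPM to 400.1, 399.7 and 416 TPM, with a log2 difference of 0.18 ± 0.04 (SE, adjusted p = 8.8e-04, limma). With median of ratios scaling the difference had the same size, but its adjusted p was 0.039 and the call was lost. Bak1 fell from 39.6, 41.1 and 40.6 TPM to 33.8, 34.4 and 36.1 TPM, with a log2 difference of -0.21 ± 0.05 (SE, adjusted p = 0.0032, limma). The Bak1 call was lost without si-CTL replicate 2 or 3 or si-Rsl24d1 replicate 1 or 2, with log2 differences of -0.19 to -0.21.

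**Figure D2:**
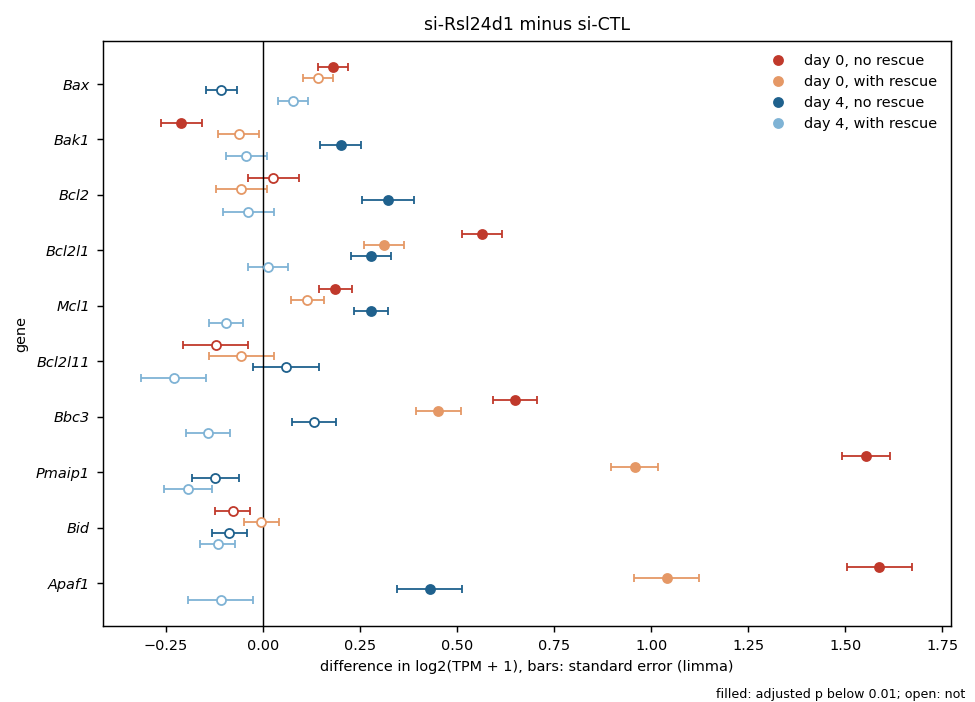
Difference in log2(TPM + 1) between si-Rsl24d1 and si-CTL (horizontal axis, with the SE from limma) for each gene (vertical axis) at day 0 and day 4, without and with rescue, n = 3 per group. Filled points passed at an adjusted p below 0.01. At day 0 Apaf1 (1.59) and Pmaip1 (1.55) stand farthest to the right, with smaller differences under rescue (1.04 and 0.96).

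In TPM summed by role over the 10 genes alone, every sum was higher in si-Rsl24d1 than in si-CTL at day 0 without rescue. The effectors summed to 398 ± 9.13 TPM (SD, n = 3) in si-CTL and 440.1 ± 10.5 TPM in si-Rsl24d1, the survival genes to 272 ± 12.9 and 321 ± 9.32 TPM, and the BH3-only genes to 108 ± 2.21 and 144 ± 2.77 TPM. The survival genes made up 34.4% and 33.9% of the sum of the 10 genes, with overlapping libraries. The share of these BH3-only genes was 13.5 to 13.8% in si-CTL and 14.9 to 15.4% in si-Rsl24d1, without overlap. The 6 other BH3-only genes listed below summed to 219 to 232 TPM in si-CTL and 191 to 216 TPM in si-Rsl24d1. The effector-like genes summed to 65.4 to 75.0 and 60.2 to 65.4 TPM, and the other survival genes to 10.4 to 11.9 and 9.37 to 10.2 TPM. The list of the apoptosome, caspases and inhibitors summed to 646 to 649 and 664 to 683 TPM. These sums are descriptions and were not tested.

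**Figure D3:**
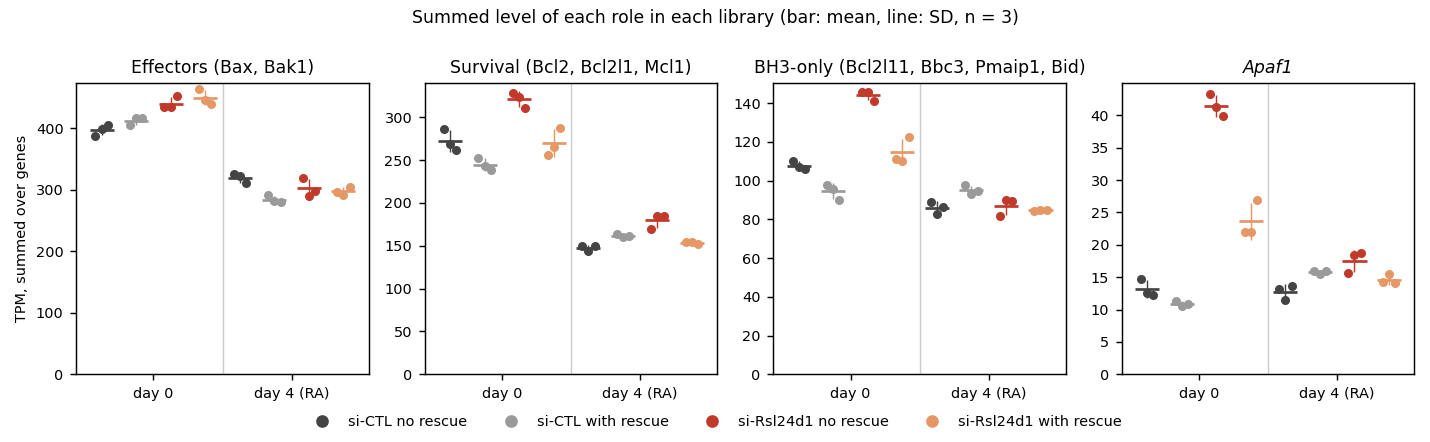
TPM summed over the genes of each role (vertical axis, from 0) in each library (points) of the 8 groups, with the group mean (bar) and SD (line), n = 3. The BH3-only sum is highest in si-Rsl24d1 cells at day 0 without rescue (mean 144 TPM), and the survival sum is lower in all groups at day 4 than in all groups at day 0.

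Around the 10 genes, 8 lists of the wider apoptosis pathway were read in the same comparison, in which 14.3% of all tested genes rose and 16.1% fell. Of the p53 target genes linked to cell death, 8 of 8 rose, with a median log2 difference of 1.05 against -0.01 for all tested genes. The largest rises were those of Perp (1.97), a membrane protein of desmosomes, Trp53inp1 (1.52), which promotes p53-dependent death, and Phlda3 (1.35), an inhibitor of AKT signalling. Of the death receptors and adaptors, 3 of 7 rose and none fell: the receptors Fas (1.78) and Tnfrsf10b (0.88) and the kinase Ripk1 (0.36). Trp53 itself did not pass (0.05). In its list, 5 of the 10 tested transcription factors and p53 regulators rose and 1 fell. The rises were led by Mdm2 (2.33), the ubiquitin ligase that degrades p53, Trp73 (2.10) and Foxo3 (1.15), and E2f1 fell (-0.46).

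In the remaining lists most of the called genes fell. Of the 17 genes of the apoptosome, caspases and their inhibitors, 2 rose and 4 fell. The nuclease Dffb had the largest rise, with a log2 difference of 1.74, while Casp9, the caspase that APAF1 activates, fell (-0.57), as did Endog (-0.40) and Aifm1 (-0.38). Of the 6 other BH3-only genes, 3 fell (Hrk at -0.95, Bmf at -0.50 and Bnip3 at -0.50). Of the 4 tested genes of the effector-like group, Bcl2l14 (-0.49) and Bok (-0.30) fell, and Bcl2l2, the 1 tested gene of the other survival genes, did not pass (-0.20, adjusted p = 0.11, limma). Of the 9 partners and turnover factors of Bcl2 proteins, 1 rose, the ubiquitin ligase subunit Fbxw7 (1.51), and 5 fell, including the mitochondrial channels Vdac1 (-0.42), Vdac3 (-0.35) and Vdac2 (-0.29).

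In the same libraries the pluripotency markers were lower, with 7 of 8 markers falling and sums of 3957 to 4005 TPM in si-Rsl24d1 against 4955 to 5113 TPM in si-CTL. Their part in the changes of the apoptosis genes was not tested. The RA-induced markers summed to 13.5 to 14.9 TPM against 15.0 to 17.5 TPM, and the fibroblast markers to 28.5 to 30.0 TPM against 38.6 to 48.1 TPM. In bulk samples, fewer cells of a type and less RNA per cell cannot be told apart.

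**Figure D4:**
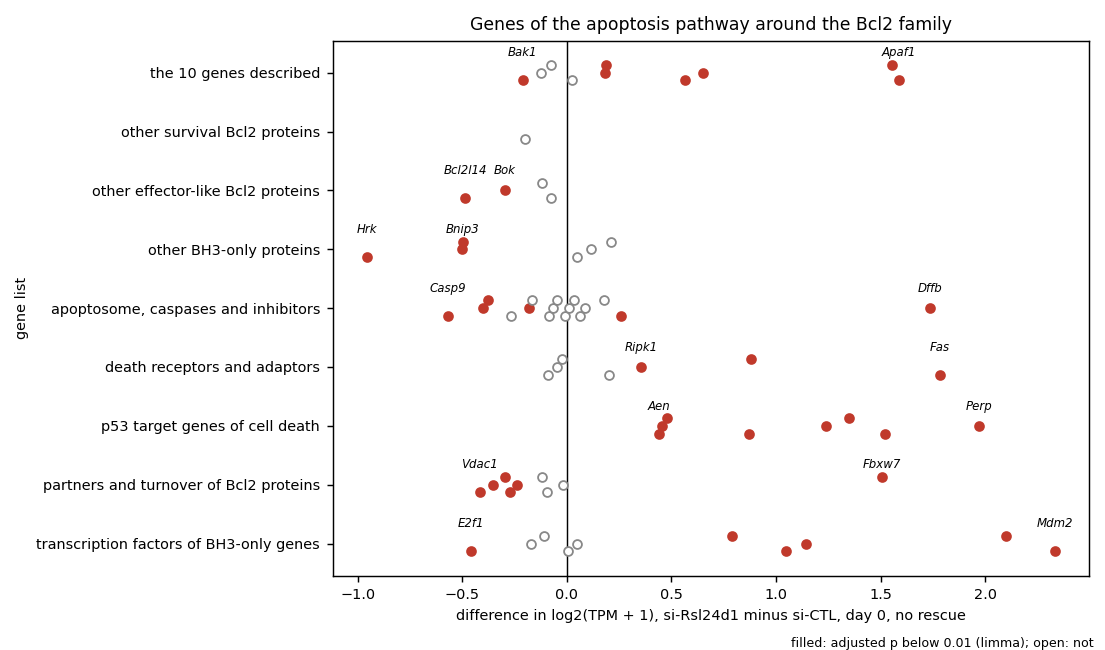
Difference in log2(TPM + 1) between si-Rsl24d1 and si-CTL at day 0 without rescue (horizontal axis) for each tested gene (points) of the 10 genes described and of 8 lists of the apoptosis pathway (vertical axis), n = 3 per group. Filled points passed in limma, and the lowest and highest of these are named. All 8 points of the p53 target genes lie to the right of 0.

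With rescue at day 0, in which Rsl24d1 in si-Rsl24d1 cells was at 70.6% of si-CTL, the same question was asked again. Apaf1, Pmaip1, Bbc3 and Bcl2l1 rose in si-Rsl24d1 cells and none of the 10 genes fell, while 8.1% of all tested genes rose and 5.64% fell. Apaf1 was at 11.4, 10.6 and 10.8 TPM in si-CTL and at 22.0, 22.0 and 26.9 TPM in si-Rsl24d1, a log2 difference of 1.04 ± 0.08 (SE, adjusted p = 1.8e-08, limma). Pmaip1 was at 7.94, 7.69 and 8.01 TPM and at 15.7, 15.5 and 17.6 TPM, a log2 difference of 0.96 ± 0.06 (SE, adjusted p = 5.8e-10, limma). In both, all si-Rsl24d1 libraries lay above all si-CTL libraries, as in 5 of the 10 genes, among them Bax, which did not pass. Without rescue, 51.1% of all tested genes did not overlap between si-Rsl24d1 and si-CTL. Bbc3 was at 31.3 to 34.6 TPM and 44.0 to 48.5 TPM (log2 difference 0.45) and Bcl2l1 at 27.8 to 28.9 TPM and 33.3 to 38.1 TPM (0.31). In a fit of only these 6 libraries Bcl2l1 lost its call. Bax (0.14, adjusted p = 0.013, limma), Mcl1 (0.11, adjusted p = 0.064) and Bak1 (-0.06, adjusted p = 0.46) did not pass in limma. Mcl1 passed, at a log2 difference of 0.09, with median of ratios scaling.

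Rescue can also be read within si-Rsl24d1 cells, in a comparison that shares its samples with those above. There, 5 of the 10 genes fell with rescue at day 0 and none rose, while 12.2% of all tested genes fell and 3.06% rose (7.42% and 8.03% with median of ratios scaling). Apaf1 fell from 41.5 to 23.6 TPM (log2 difference -0.79 ± 0.08, SE, adjusted p = 2.6e-06, limma) and Pmaip1 from 28.0 to 16.3 TPM (-0.75 ± 0.06, SE, adjusted p = 1.3e-07, limma). Bcl2l1 (-0.38), Bbc3 (-0.33) and Mcl1 (-0.23) fell as well. The median over all tested genes was -0.11 here, and with median of ratios scaling the 5 genes still passed, at -0.67 for Apaf1, -0.62 for Pmaip1, -0.25 for Bcl2l1, -0.20 for Bbc3 and -0.10 for Mcl1. In a fit of only these 6 libraries Mcl1 lost its call.

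The difference between the siRNA effects without and with rescue was tested as an interaction. It passed for Pmaip1, with a log2 value of -0.60 ± 0.09 (SE, adjusted p = 4.2e-04, limma), and for Apaf1, with -0.55 ± 0.12 (SE, adjusted p = 0.0094, limma). Of all tested genes, 1.18% passed in this direction and 0.906% in the other. The Apaf1 call was lost when 1 library was left out in 10 of 12 cases, all but si-CTL replicate 1 without rescue and si-Rsl24d1 replicate 3 with rescue, with values of -0.50 to -0.58. In a fit of only the 12 libraries at day 0 neither gene passed, as 0.474% of all tested genes did. There, 4 of the 10 genes and 16.7% of all tested genes had an unadjusted p under 0.05. For Bcl2l1 the value was -0.25 (adjusted p = 0.053, limma) and for Bbc3 -0.20 (adjusted p = 0.19, limma), with normal 95% intervals of -0.40 to -0.11 and -0.36 to -0.04. Bcl2l1 passed at -0.27 with median of ratios scaling. The effect with rescue was 61.7% of the effect without it for Pmaip1, 65.5% for Apaf1, 69.5% for Bbc3 and 55.1% for Bcl2l1. Read in each si-Rsl24d1 library with rescue, this share was 58 to 69%, 60 to 77%, 59 to 80% and 40 to 74%. These ranges overlap, so the genes are not ranked. For Bax, Mcl1 and Bak1, with smaller effects without rescue, the ranges were 54 to 107%, 23 to 111% and -10 to 51%.

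In si-CTL cells at day 0, rescue changed none of the 10 genes past the test, and 0.0122% of all tested genes passed in limma. At an unadjusted p under 0.05, 8 of the 10 and 37.6% of all tested genes were lower with rescue, the 8 by log2 differences between -0.13 for Bcl2l1, Bak1 and Bbc3 and -0.27 for Bcl2l11, beside a median of -0.12 over all tested genes. The differences of Bcl2l1, Bak1 and Bbc3 turned to 0.02, 0.02 and 0.01 with median of ratios scaling, where none of the 10 genes passed either.

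At day 4, the libraries labelled si-Rsl24d1 without rescue were compared with si-CTL, with Rsl24d1 at similar levels in both as given above. Apaf1, Bcl2, Bcl2l1, Mcl1 and Bak1 rose and none of the 10 genes fell, while 24.9% of all tested genes rose and 6.04% fell (14.7% and 14.5% with median of ratios scaling). Apaf1 was at 13.2, 11.5 and 13.6 TPM in si-CTL and at 15.6, 18.4 and 18.7 TPM in si-Rsl24d1, a log2 difference of 0.43 ± 0.08 (SE, adjusted p = 5.1e-04, limma). Of the survival genes, Bcl2 was at 0.262 to 0.332 TPM and 0.535 to 0.717 TPM (0.32). Its mean of 0.55 on the log2(TPM + 1) scale over all 24 libraries was near the 0.5 needed to be tested. Bcl2l1 was at 26.8 to 27.6 TPM and 29.9 to 35.9 TPM (0.28), and Mcl1 at 117 to 121 TPM and 139 to 149 TPM (0.28). The groups did not overlap in these 4 genes, in Bak1 or in Pmaip1, 6 of the 10, against 48.4% of all tested genes.

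Bak1 rose by a log2 difference of 0.20 ± 0.05 (SE, adjusted p = 0.005, limma), but with median of ratios scaling the value was 0.04 (adjusted p = 0.46, limma). Its call was also lost without si-CTL replicate 2 (0.15) or si-Rsl24d1 replicate 2 or 3 (0.17 and 0.20). Pmaip1 was at 14.2 to 15.2 TPM in si-CTL and at 12.7 to 13.7 TPM in si-Rsl24d1, a log2 difference of -0.12 (adjusted p = 0.11, limma). Bax (-0.11) and Bid (-0.09) also did not pass, and the groups overlapped for Bbc3 (0.13) and Bcl2l11 (0.06). With median of ratios scaling, Pmaip1 (-0.27), Bax (-0.27) and Bid (-0.24) passed as lower, the values of Bbc3 and Bcl2l11 turned to -0.02 and -0.09, and Apaf1, Bcl2, Bcl2l1 and Mcl1 remained higher. In a fit of only these 6 libraries none of the 10 genes passed in limma, against 4.95% of all tested genes. There, 5 of the 10 and 44.7% of all tested genes had an unadjusted p under 0.05.

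Other markers moved in the same day 4 libraries. Of the fibroblast markers, 4 of 7 rose, with sums of 212 to 282 TPM in si-Rsl24d1 against 109 to 117 TPM in si-CTL, and of the RA-induced markers 6 of 8 rose, with sums of 59.7 to 68.3 TPM against 45.2 to 50.8 TPM. Lum, of the fibroblast list, and Hoxb1, of the RA list, were too low to be tested. The part of these markers in the result was not tested. Of the lists of the pathway, the p53 target genes held 2 rises, Zmat3 (0.78) and Trp53inp1 (0.48), and 1 fall, Siva1 (-0.29), among 8 genes, and Trp53inp1 lost its call with median of ratios scaling. Of the 17 genes of the apoptosome, caspases and their inhibitors, 5 rose and 2 fell, with the inhibitor of apoptosis Xiap at 0.59 and cytochrome c, Cycs, at -0.33. Of the death receptors and adaptors 3 of 7 rose, including Fas (0.58) and its antagonist Cflar (0.50). Of the partners and turnover factors 4 of 9 rose, led by the deubiquitinase Usp9x (0.71), and of the transcription factors and p53 regulators 5 of 10 rose, led by Atf3 (0.88). Of the other BH3-only genes 1 of 6 rose, Hrk (0.33). In this comparison 24.9% of all tested genes rose and 6.04% fell, or 14.7% and 14.5% with median of ratios scaling.

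With rescue at day 4, none of the 10 genes passed in limma between si-Rsl24d1 and si-CTL, against 5.87% of all tested genes in either direction (2.33% higher and 3.53% lower, or 3.67% and 2.54% with median of ratios scaling). At an unadjusted p under 0.05, 5 of the 10 and 17.2% of all tested genes were lower. Pmaip1 came nearest, at 17.5, 17.4 and 17.6 TPM in si-CTL and 15.2, 14.1 and 16.4 TPM in si-Rsl24d1, with a log2 difference of -0.19 (adjusted p = 0.042, limma). Apaf1 was at 15.5 to 16.0 TPM and 14.1 to 15.5 TPM, with a log2 difference of -0.11 and a normal 95% interval of -0.27 to 0.06. Whether the siRNA effects with and without rescue differed at day 4 was not tested.

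Within si-Rsl24d1 cells at day 4, Bak1 (log2 difference -0.29), Mcl1 (-0.25) and Bbc3 (-0.25) fell with rescue, and 4.23% of all tested genes fell and 0.936% rose (2.22% and 1.56% with median of ratios scaling). Bbc3 lost its call with median of ratios scaling (-0.18, adjusted p = 0.022, limma), without si-Rsl24d1 replicate 2 or 3 and without any of the 3 rescue libraries (-0.22 to -0.27), and Bak1 without replicate 2 of either group (-0.26 and -0.27). With median of ratios scaling Pmaip1 (0.25) and Bid (0.18) passed as higher. Within si-CTL cells at day 4, Bax fell (-0.18) and Pmaip1 rose (0.25) with rescue, while 1.34% of all tested genes fell and 8.85% rose (5.42% and 5.80% with median of ratios scaling). Both calls were small: Pmaip1 lost its call with median of ratios scaling (0.13, adjusted p = 0.094, limma) and without each single library in turn. Bax lost its call without si-CTL replicate 1 or 2 without rescue or without any one of the 3 rescue libraries. In fits of only the groups compared, none of the 10 genes passed in either of these comparisons, and of all tested genes 0.0547% passed in si-Rsl24d1 and 7.65% in si-CTL. There, 6 and 7 of the 10 had an unadjusted p under 0.05, as had 18.2% and 41.3% of all tested genes.

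The next comparison asks how the same genes changed from day 0 to day 4 of RA. In si-CTL cells without rescue, 8 of the 10 genes fell and Pmaip1 rose, while 36.7% of all tested genes fell and 24.1% rose (30.8% each with median of ratios scaling). Mcl1 fell most, from 255, 237 and 231 TPM to 121, 117 and 121 TPM, a log2 difference of -1.001 ± 0.04 (SE, adjusted p = 1.0e-13, limma). On the log2(TPM + 1) scale, Mcl1 alone among the 10 genes fell by more than 1.8-fold, as did 8.24% of all tested genes. This scale shrinks changes below 1 TPM, as for Bcl2, at a mean of 0.54 TPM at day 0 and 0.29 TPM at day 4. Bak1 fell from 39.6 to 41.1 TPM to 23.1 to 26.1 TPM (-0.68), Bcl2l11 from 25.7 to 30.7 TPM to 16.9 to 18.5 TPM (-0.62) and Bid from 34.2 to 35.1 TPM to 23.4 to 26.3 TPM (-0.46). Smaller falls were those of Bbc3 (-0.33), Bax (-0.28), Bcl2 (-0.26) and Bcl2l1 (-0.18). Of these, Bax and Bcl2l1 lost their calls with median of ratios scaling, at -0.14 and -0.04. The Bcl2l1 call was also lost without any one of the 6 libraries, and the Bcl2 call without si-CTL replicate 2 at day 0 (-0.23).

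Pmaip1 went the other way, from 8.88, 9.29 and 8.48 TPM to 15.2, 14.2 and 14.2 TPM, a log2 difference of 0.65 ± 0.06 (SE, adjusted p = 1.2e-08, limma). Apaf1 was at 12.2 to 14.7 TPM at day 0 and 11.5 to 13.6 TPM at day 4, with overlap and a log2 difference of -0.04 (adjusted p = 0.67, limma), which turned to 0.09 (adjusted p = 0.19) with median of ratios scaling. Other BH3-only genes rose in these cells: 5 of the 6 on the list, led by Bik (1.24), Bnip3 (0.82) and Bnip3l (0.66), and Hrk fell (-0.98). Of the caspases and their inhibitors, 2 rose and 8 fell, with Casp6 at 1.20 and the nuclease inhibitor Dffa at -1.22. In the same comparison 6 of 7 fibroblast markers rose (sums of 38.6 to 48.1 TPM at day 0 and 109 to 117 TPM at day 4), as did 5 of 8 RA-induced markers (15.0 to 17.5 TPM and 45.2 to 50.8 TPM), and their part in the result was not tested. Trp53 fell by a log2 difference of -0.89, and of the p53 target genes 5 of 8 fell and 1 rose. Of all tested genes, 36.7% fell and 24.1% rose in this comparison.

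With rescue, the si-CTL cells showed 2 rises, Pmaip1 (1.06) and Apaf1 (0.50), and 4 falls, while 36.8% of all tested genes rose and 22.4% fell (31.1% and 30.1% with median of ratios scaling). Mcl1 (-0.72), Bak1 (-0.60), Bax (-0.53) and Bid (-0.15) fell. The Bid call was lost without replicate 1 or 2 at day 0 or replicate 2 or 3 at day 4 (-0.13 to -0.15), and Bbc3, at -0.17, passed without replicate 3 at day 0 or replicate 1 at day 4. With median of ratios scaling Bbc3 (-0.31) and Bcl2l11 (-0.26) fell too, and the value of Bcl2l1 turned from 0.12, which did not pass, to -0.02.

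In si-Rsl24d1 cells without rescue, 9 of the 10 genes fell from day 0 to day 4 and none rose, while 26.4% of all tested genes fell and 29.4% rose. Apaf1 fell from 43.3, 41.3 and 39.9 TPM to 15.6, 18.4 and 18.7 TPM, a log2 difference of -1.20 ± 0.08 (SE, adjusted p = 1.7e-10, limma). Pmaip1 fell from 30.4, 27.0 and 26.7 TPM to 12.7, 13.4 and 13.7 TPM (-1.02 ± 0.06, SE, adjusted p = 1.3e-11, limma). Both groups stood apart, and Rsl24d1 rose in the same comparison by a log2 difference of 1.39. Mcl1 (-0.91), Bbc3 (-0.84), Bax (-0.57), Bid (-0.47), Bcl2l1 (-0.46), Bcl2l11 (-0.44) and Bak1 (-0.27) fell as well, and Bcl2 did not pass (0.04). Apaf1, Pmaip1 and Mcl1 fell by more than 1.8-fold on the log2(TPM + 1) scale, as did 6.22% of all tested genes. All 8 p53 target genes fell, led by Perp (-2.15) and Pidd1 (-1.98). Of the markers, 6 of 7 for fibroblasts rose (sums of 28.5 to 30.0 TPM at day 0 and 212 to 282 TPM at day 4), as did 8 of 8 RA-induced markers, and of the pluripotency markers 5 of 8 rose and 2 fell. Their part in the result was not tested.

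With rescue, 8 of the 10 genes fell in si-Rsl24d1 cells, while 25.8% of all tested genes fell and 32.4% rose. Mcl1 (-0.93), Bbc3 (-0.77), Apaf1 (-0.65), Bax (-0.59) and Bak1 (-0.58) had the largest falls, and Bid (-0.26), Bcl2l11 (-0.29) and Bcl2l1 (-0.18) fell less. The calls of both Bcl2l11 and Bcl2l1 were lost without replicate 2 or 3 at day 0 or replicate 1 or 3 at day 4. Pmaip1 was at 15.5 to 17.6 TPM at day 0 and 14.1 to 16.4 TPM at day 4, a log2 difference of -0.09 (adjusted p = 0.19, limma).

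**Figure D5:**
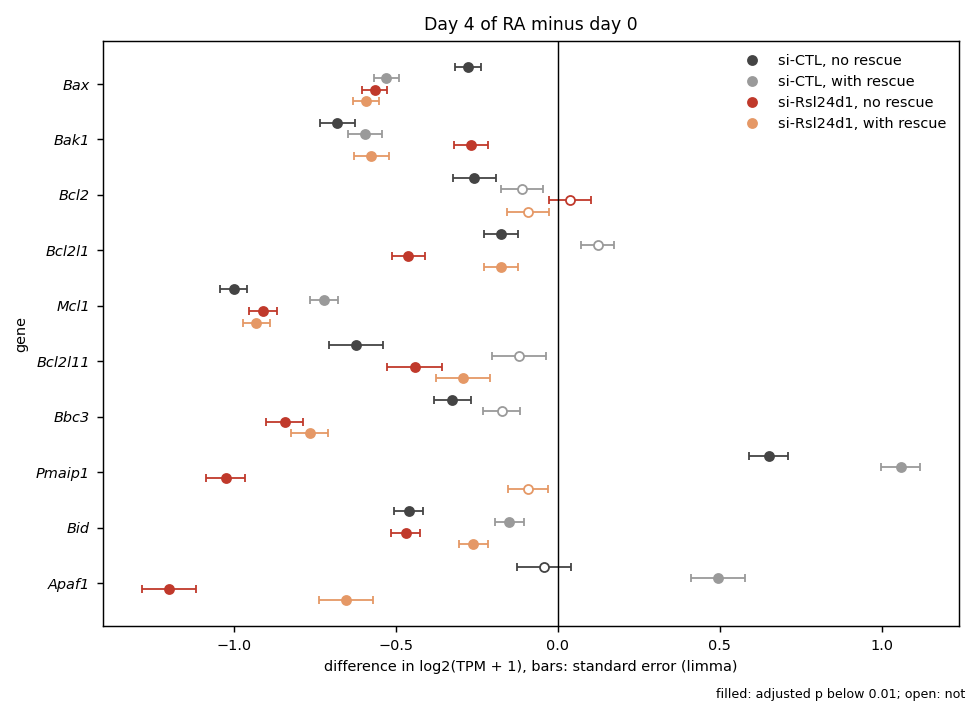
Difference in log2(TPM + 1) between day 4 and day 0 (horizontal axis, with the SE from limma) for each gene (vertical axis) in each of the 4 combinations of siRNA and rescue, n = 3 per group. Filled points passed at an adjusted p below 0.01. Mcl1, Bak1, Bax and Bid fell in all 4 combinations as deposited, whereas Pmaip1 lies on both sides of 0, from 1.06 under rescue in si-CTL to -1.02 in si-Rsl24d1 without it. With median of ratios scaling the fall of Bax in si-CTL without rescue (-0.14) did not pass.

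Whether the siRNA effect differed between the days was tested without rescue as an interaction. It was lower at day 4 than at day 0 for 5 of the 10 genes, while 8.83% of all tested genes passed in this direction and 22.1% in the other (13.2% and 15.3% with median of ratios scaling). The values were -1.68 ± 0.09 for Pmaip1 (SE, adjusted p = 2.4e-11, limma), -1.16 ± 0.12 for Apaf1 (SE, adjusted p = 2.9e-07, limma), -0.52 for Bbc3, -0.29 for Bax and -0.28 for Bcl2l1. Bak1 was the 1 gene of the 10 that passed in the other direction, at 0.41 ± 0.07 (SE, adjusted p = 2.2e-04, limma). The Bcl2l1 call was lost without si-CTL replicate 3 or si-Rsl24d1 replicate 1 or 2 at day 0 or si-CTL replicate 1 at day 4, with values near -0.28, and in a fit of only the groups compared. Rsl24d1 itself was lower in si-Rsl24d1 cells at day 0 and, on the deposited scale, not at day 4. With median of ratios scaling Rsl24d1 was lower at day 4 as well, by the value given at the start. The day and the depth of the depletion can therefore not be told apart. The same 6 genes passed with median of ratios scaling, with values of -1.82, -1.31, -0.67, -0.45, -0.44 and 0.26.

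Across all 8 groups the genes fell into different orders. For Mcl1 the 4 groups at day 0 stood above the 4 groups at day 4, and the lowest day 0 group mean of 7.76 ± 0.05 (SD, n = 3) on the log2(TPM + 1) scale was well above the highest day 4 group mean of 7.19 ± 0.06. Bax, Bak1 and Bid were ordered by day as well. For Apaf1 the order was led by the 2 groups of si-Rsl24d1 at day 0, at 5.41 ± 0.06 without and 4.61 ± 0.16 with rescue, whose libraries did not overlap with each other or with the third group. Neighbours from the third to the seventh place, between 4.21 and 3.78, overlapped. For Pmaip1, si-Rsl24d1 at day 0 without rescue led at 4.86 ± 0.10, the 2 si-CTL groups at day 0 were lowest at 3.30 ± 0.06 and 3.15 ± 0.03, and the groups at day 4 lay between, at 3.83 to 4.21.

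The tested genes whose pattern over the 24 libraries was most like that of the 3 most variable genes were found by Pearson's r. For Apaf1 these were Rap2a (r = 0.996), Cd109 (0.990) and Plk2 (0.990), and of the other 9 genes Bcl2l1 was nearest at 0.964, in place 52. For Pmaip1 they were Nanos1 (0.983), Tbc1d8 (0.979) and Tef (0.977), with Apaf1 at 0.837 in place 225. For Mcl1 they were Med24 (0.995), Camkk1 (0.992) and Phc1 (0.992), with Bak1 at 0.923 in place 1214 and Bax at 0.903 in place 1596. The libraries share their groups, so these values describe patterns across 8 groups of 3 and carry no test.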

How the data were processed

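The authors deposited 1 table of log2(TPM + 1) values for 54242 genes in the 24 libraries, made from RNA-seq reads with STAR and Salmon (versions 2.7.8a and 1.4.0 in the submitters' processing notes, which give the build as GRCh38, a human build, where the methods describe a mouse build). The labels name a poly-A kit and the methods a total RNA kit, and some labels give an earlier collection time than 72 h. TPM recovered from the deposited values summed to 1000000 in each library, so depth is unknown and no counting interval can be given. No 2 libraries held identical values.

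Groups came from the labels. The 16447 genes whose log2(TPM + 1) averaged 0.5 or more were fitted in limma 3.58.1 (R 4.3.3) with trended variance and 8 group means over all 24 libraries, and p-values were adjusted by Benjamini-Hochberg over all tested genes, with a threshold of 0.01. The 14 comparisons share groups and are not independent. A fold threshold of 1.8, after the study's methods, was also counted, on the log2(TPM + 1) scale. An exact permutation test of 3 against 3 libraries cannot go below p = 0.1, so none was used. The median of ratios rescaling and other alternatives are given at the end. The genes and lists were chosen with earlier results of these data known. The genes named from lists are at most 3 with the largest rise and 3 with the largest fall among those past the test, and those named for their likeness are the 3 with the highest r to each of the 3 genes of largest SD. Positions came from gencode vM21 and promoters from RefSeq, matched by symbol. Sequence of Pmaip1 and the values of 1 listed gene are not reported here.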

Additional observations from a re-analysis of the deposited data

Results flagged for a closer look

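Some effects of the siRNA differed between conditions by an interaction test in limma. At day 0 the effect was smaller with rescue for Pmaip1, at a log2 value of -0.60, and for Apaf1, at -0.55. Of all tested genes, 1.18% passed in this direction. The Apaf1 call was lost when most single libraries were left out. In a fit of only the groups compared neither gene passed, against 0.474% of all tested genes. Without rescue the effect was lower at day 4 than at day 0 for Pmaip1 (-1.68), Apaf1 (-1.16), Bbc3 (-0.52), Bax (-0.29) and Bcl2l1 (-0.28), and higher for Bak1 (0.41). In the day 4 libraries labelled si-Rsl24d1, Rsl24d1 was not lower on the deposited scale, so the day and the depletion cannot be told apart.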

How the results depend on the processing

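No called value of the 10 genes changed direction under any alternative run, but counts past the test moved. The 1.8-fold threshold, on the log2(TPM + 1) scale, left 2 of 7 genes for si-Rsl24d1 against si-CTL at day 0. It left 2 of 4 with rescue and 0 of 5 at day 4 without rescue. It left 0 of 5, 0 of 3 and 0 of 2 for rescue in si-Rsl24d1 at day 0, in si-Rsl24d1 at day 4 and in si-CTL at day 4. For day 4 against day 0 it left 1 of 9 in si-CTL, 3 of 9 in si-Rsl24d1, 1 of 8 in si-Rsl24d1 with rescue and 1 of 6 in si-CTL with rescue, and for the interactions 0 of 2 (rescue) and 2 of 6 (day). Fits of only the groups compared left 0 of 5 for the siRNA at day 4, 0 of 3 and 0 of 2 for rescue at day 4 in si-Rsl24d1 and si-CTL, and 0 of 2 for the rescue interaction. They left 6 of 7 and 3 of 4 for the siRNA at day 0 without and with rescue, beside 22.8% and 4.15% of all tested genes. For rescue in si-Rsl24d1 at day 0 they left 4 of 5 (beside 3.97%), and for the day interaction 5 of 6 (23.2%). For day 4 against day 0 they left 8 of 9 in si-CTL (54.4%) and 9 of 9 in si-Rsl24d1 (44.3%). With rescue they left 6 of 8 in si-Rsl24d1 (51.3%) and 5 of 6 in si-CTL (54.5%). For rescue in si-CTL at day 4 the count was 1 with no filter, with the replicate block and with median of ratios scaling, and for the rescue interaction 1 with 0.1 in place of 1 added to the TPM, with no filter and with the replicate block.

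Leaving out 1 library at a time gave 5 to 7, 4 to 4, 4 to 6 and 0 to 0 genes for the siRNA at day 0, at day 0 with rescue, at day 4 and at day 4 with rescue. It gave 5 to 5, 1 to 3, 0 to 0 and 0 to 1 for rescue in si-Rsl24d1 at day 0 and day 4 and in si-CTL at day 0 and day 4. It gave 7 to 8, 9 to 9, 6 to 8 and 5 to 7 for day 4 against day 0 in si-CTL, si-Rsl24d1, si-Rsl24d1 with rescue and si-CTL with rescue, and 1 to 2 and 5 to 7 for the interactions with rescue and day. Over all pairs of groups, the replicate numbers showed no sign of pairing the samples. Deviations of same-numbered libraries had a mean r of -0.02 over 84 pairs, 4 of them over 0.1. Those of differently numbered libraries had a mean r of 0.009 over 168 pairs, 17 of them over 0.1. Pairs within a day were not read apart, so pairing within a day was not tested. With the replicate block, Bbc3 lost its call for rescue in si-Rsl24d1 at day 4, Pmaip1 for rescue in si-CTL at day 4 and Apaf1 for the rescue interaction, and it changed no other of the 140 calls. Of 140 values, 20 lost their call in fits of only the groups compared, 6 lost and 9 gained it with median of ratios scaling, 3 lost it with no filter, 1 with 0.1 added and 0 with 2 added. Bcl2 did not reach a filter of 1.5, and the other 126 calls were kept there. The cause of these changes was not tested. Low levels limit Bcl2 most, since it lay below 1 TPM in every library.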
